A study of Rattus norvegicus with 15 samples.

Results

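The genes described here are 45 rat genes of the cell division cycle, 24 that act in mitosis and 21 that act in DNA replication. They were chosen by symbol: a probe set counted when the platform annotation gave it that gene symbol and no other. Of the 45 genes, 43 had such a probe set (22 mitosis genes and 21 replication genes), with 69 of the 26202 probe sets of the series between them, and Birc5 and Tacc3 had none. Values of a gene are those of its brightest probe set, by the mean over the 5 states.

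The study measured RNA in the ductus arteriosus, the fetal vessel between pulmonary artery and aorta that closes after birth, and in the aorta (arch and thoracic part). The newborn ductus was taken 3 h after vaginal delivery, the oxygen ductus came from fetuses at day 19 of gestation whose dams had breathed 100% oxygen for 3 h, and the fetal ductus came from day 19 fetuses of dams without added oxygen. The newborn aorta was likewise taken 3 h after vaginal delivery, and the fetal aorta at day 19. The title of the newborn aorta array on chip A instead counts its hours from mating; the description of that array gives newborns and was followed, and all birth ratios of the aorta on chip A rest on it. Each of these 5 states was hybridised once to each of 3 Affymetrix chip types (A, B and C), so 15 arrays were used and no state had replicates. Fetuses were delivered by caesarean section, and vessels were dissected in medium gassed with 12.5% oxygen for newborns and 2.5% for fetuses. Newborn and fetal arrays therefore differ in age, in mode of delivery and in dissection medium, and these cannot be told apart. The labels name no strain and give no number of animals per array. All 8 smooth muscle markers that had a probe set, among them Acta2 and Myh11, were above the floor in all 5 states.

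Cells copy their DNA once in each cycle and then divide it in mitosis. In replication, the helicase of the Mcm2 to Mcm7 proteins opens the double strand, polymerases held by the sliding clamp PCNA copy it, and ribonucleotide reductase and thymidine kinase supply the building blocks. In mitosis, cyclin B with the kinase Cdk1 condenses the chromosomes and builds the spindle, and the anaphase-promoting complex with its activator Cdc20 then starts their separation. Transcripts of both groups are made mainly in dividing cells, and smooth muscle of large arteries divides in the fetus and matures around birth.

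The 2 groups are known to be switched on at different times of the cycle, replication genes through E2F sites and mitosis genes through the cell cycle homology region (CHR) and CCAAT boxes bound by NF-Y. The promoters were therefore examined first. Promoter windows from 250 bases before to 50 bases after the gene start (RefSeq, build GRCr8) were found for 37 of the 43 genes. On either strand they were searched for CHR letters (TTTGAA or TTTAAA), for CCAAT, and for E2F letters (TTTCCCGC, TTTCGCGC, TTTGCCGC or TTTGGCGC), of which TTTCGCGC and TTTGGCGC on opposite strands can overlap. CHR letters stood in 16 of 18 mitosis promoters (88.9%) and in 3 of 19 replication promoters (15.8%), against 26.4% of the 21842 promoters of protein-coding genes. E2F letters had the opposite split, in 2 of 18 mitosis promoters (11.1%) and 11 of 19 replication promoters (57.9%), against 2.73% of protein-coding promoters. CCAAT stood in 16 of 18 mitosis promoters (88.9%) and 11 of 19 replication promoters (57.9%), against 38.0% of protein-coding promoters. At least 2 CCAAT boxes were found in 12 of the mitosis promoters, 5 of the replication promoters and 12.2% of protein-coding promoters. In the mitosis promoters 17 of the 22 CHR matches began within the 100 bases before the start. None of the 4 CHR matches in replication promoters did so. Over all 33469 RefSeq promoters of any gene type the shares were 28.3% for CHR letters, 2.14% for E2F letters and 37.5% for CCAAT. These matches describe letters and do not show binding.

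**Figure D1:**
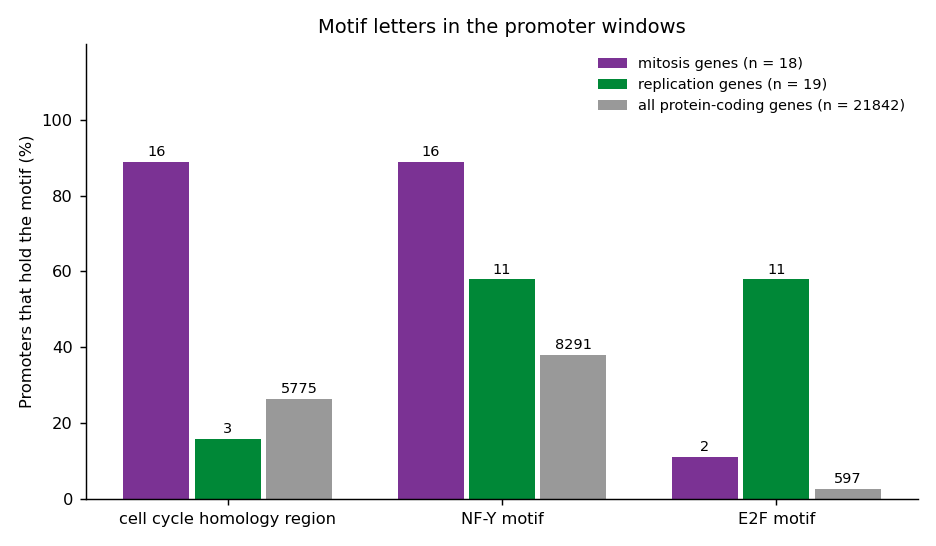
Share of promoter windows that hold each motif (y axis, percent) for mitosis genes, replication genes and all protein-coding genes, with the number of promoters above each bar. The NF-Y motif is CCAAT. CHR letters were found in 16 of 18 mitosis promoters and 3 of 19 replication promoters, and E2F letters in 2 of 18 mitosis promoters and 11 of 19 replication promoters.

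Shown are 3 promoters of each group, from the genes with the lowest birth ratios (median of both vessels) whose window held a motif searched for. Each runs 5′ to 3′ on the strand of the gene, with 220 bases before the start and 30 from the start on, and capitals mark the motif letters. The 3 mitosis promoters, of the condensin subunit Ncapd2 (chr4:159677909-159678158, minus strand), the kinesin Kifc1 (chr20:5000709-5000958, plus strand) and Cdc20 (chr5:137255770-137256019, minus strand), each carry 1 CHR match and 2 or 3 CCAAT boxes.
Ncapd2: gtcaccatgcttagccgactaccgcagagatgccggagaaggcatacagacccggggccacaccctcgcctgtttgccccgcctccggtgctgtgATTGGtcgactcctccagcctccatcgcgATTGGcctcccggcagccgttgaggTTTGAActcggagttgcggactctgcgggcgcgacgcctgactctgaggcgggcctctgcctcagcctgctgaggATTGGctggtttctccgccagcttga
Kifc1: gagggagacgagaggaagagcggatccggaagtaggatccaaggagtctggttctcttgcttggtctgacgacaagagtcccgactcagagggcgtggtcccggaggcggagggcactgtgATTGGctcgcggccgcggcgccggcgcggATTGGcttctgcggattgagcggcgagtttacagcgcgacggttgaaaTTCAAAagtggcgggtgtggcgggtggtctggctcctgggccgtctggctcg
Cdc20: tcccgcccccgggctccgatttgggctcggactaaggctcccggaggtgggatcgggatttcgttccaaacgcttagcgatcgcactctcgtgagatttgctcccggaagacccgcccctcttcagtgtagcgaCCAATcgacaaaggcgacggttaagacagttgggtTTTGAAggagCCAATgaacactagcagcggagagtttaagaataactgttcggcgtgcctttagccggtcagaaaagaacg
The replication promoters are those of Cdca7 (chr3:77730095-77730344, plus strand), the helicase subunit Mcm5 (chr19:13488593-13488842, plus strand) and the polymerase subunit Pold1 (chr1:104172953-104173202, minus strand). Mcm5 has 3 E2F matches, of which a pair overlaps far upstream of the start, and 3 CCAAT boxes. Cdca7 has 1 E2F match and 1 CHR match, and the single match of Pold1 is a CCAAT box.
Cdca7: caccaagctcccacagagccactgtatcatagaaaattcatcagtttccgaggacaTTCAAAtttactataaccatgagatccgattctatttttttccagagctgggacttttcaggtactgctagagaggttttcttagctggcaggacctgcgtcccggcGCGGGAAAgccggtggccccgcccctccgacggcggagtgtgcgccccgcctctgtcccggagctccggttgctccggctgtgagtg
Mcm5: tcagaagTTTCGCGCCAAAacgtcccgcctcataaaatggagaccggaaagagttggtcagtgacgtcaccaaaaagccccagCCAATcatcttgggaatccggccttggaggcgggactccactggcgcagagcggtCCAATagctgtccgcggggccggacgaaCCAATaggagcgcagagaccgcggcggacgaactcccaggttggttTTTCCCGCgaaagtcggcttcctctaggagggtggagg
Pold1: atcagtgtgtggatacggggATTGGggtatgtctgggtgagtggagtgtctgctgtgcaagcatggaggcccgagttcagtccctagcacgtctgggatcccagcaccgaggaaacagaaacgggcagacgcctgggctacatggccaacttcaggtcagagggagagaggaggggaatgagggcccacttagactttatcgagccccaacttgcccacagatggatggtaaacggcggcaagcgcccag

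Signals are in the arbitrary units of the deposited values, which had been scaled to the same trimmed mean on every array (500.3 to 500.9). Each chip type has a floor, the median over all its values, of 149.8 (A), 241.7 (B) or 243.0 (C). Dimmer signals were raised to it before a ratio was taken, so folds against such a value are lower bounds. Each array had 46.9% to 51.8% of its values above it. The genes compared were those whose mean over the 5 states was above the floor, 7216 of the 10969 named genes, 21 of 22 mitosis genes and 19 of 21 replication genes. Kif11, Pola1 and Tyms had means under it, with 58.0 to 104, 144 to 300 and 107 to 166 over the 5 states. A ratio of 2 states compares 2 arrays and has no test. From the vessel-by-stage differences of 6410 named genes, the SD of a log2 ratio was estimated at 0.303. In whole vessels, fewer dividing cells and less RNA per dividing cell cannot be told apart.

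Birth in the ductus went with lower signals of the whole group. The group was chosen with earlier results of these data known, so the counts below describe it and test nothing. All 40 genes compared had a lower signal in the newborn ductus than in the fetal ductus, with a median log2 ratio of -0.72 against -0.05 over all named genes. At least 1.5-fold lower were 28 of the 40, against 9.94% of all named genes, and at least 2-fold lower were 15, against 1.86%. None was 1.5-fold higher, against 7.71% of all named genes. In the aorta the median was -0.57 against -0.05 over all named genes, and 37 of 40 genes were lower in the newborn than in the fetus. At least 1.5-fold lower in the newborn aorta were 19 of 40 (11.4% of all named genes), at least 2-fold lower 9 (2.85%), and 1.5-fold higher 0 (7.75%). The 2 birth comparisons share no array, and 17 of 40 genes were at least 1.5-fold lower in both, against 3.52% of all named genes. In 36 of 40 genes both newborn arrays were below all 3 arrays of day 19 fetuses, an order found in 23.9% of all named genes. The exceptions were Pcna, Prim1, Rrm1 and Rfc2, all replication genes.

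**Figure D2:**
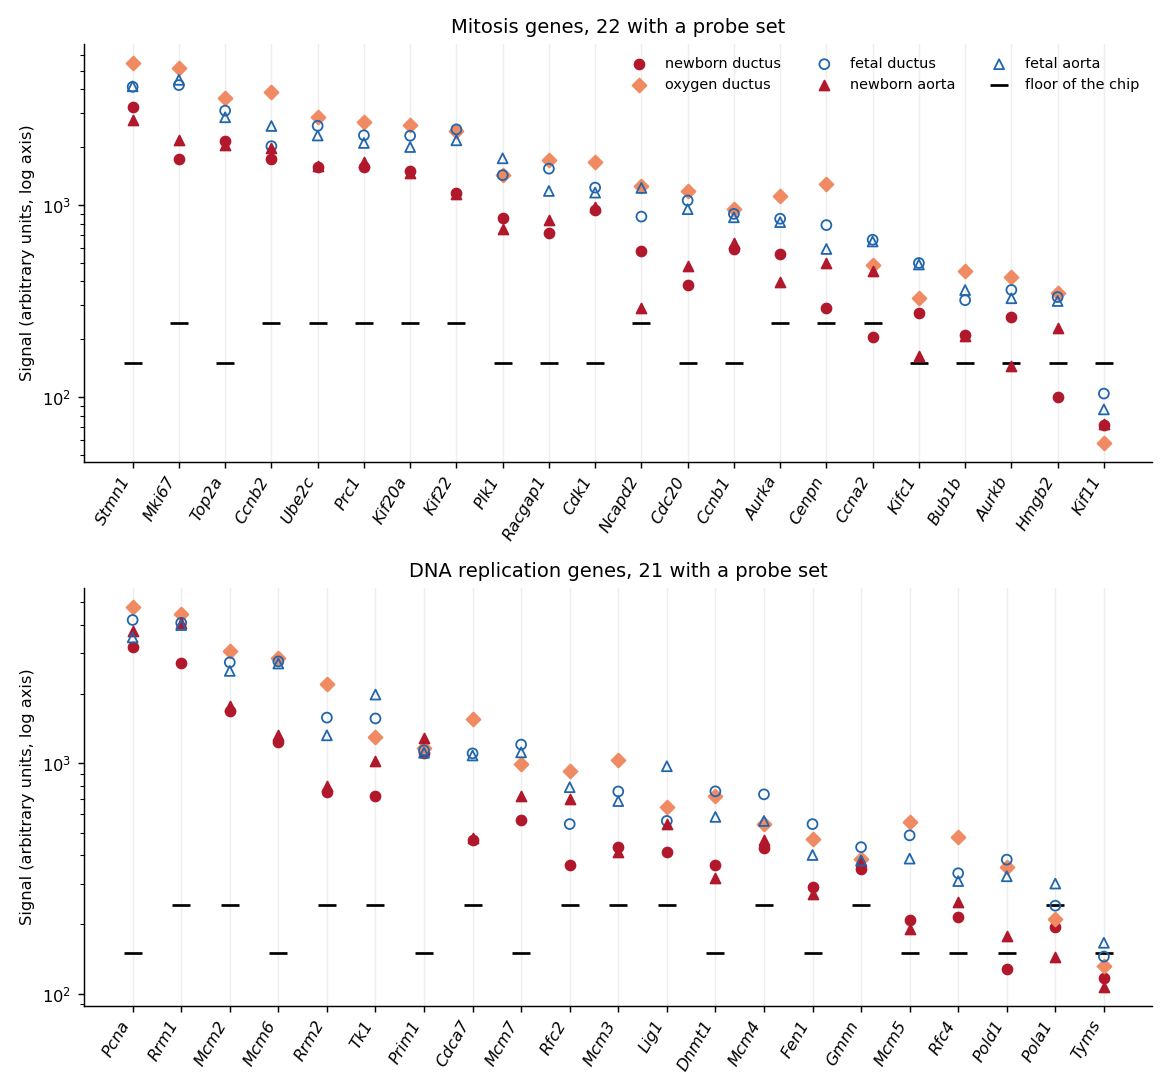
Signal of each gene at its brightest probe set (y axis, arbitrary units on a log axis) in the 5 states, for mitosis genes above and replication genes below, ordered by mean signal. Filled red symbols are newborn vessels, orange diamonds the oxygen ductus, open blue symbols fetal vessels, circles ductus, triangles aorta, and black dashes the floor of the chip. In all 21 mitosis genes above the floor both newborn symbols lie below the other 3.

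Mitosis genes are given first, from the regulators of entry to the machinery of division. The median log2 ratio of the 21 genes was -0.61 for newborn over fetal ductus (15 at least 1.5-fold and 7 at least 2-fold lower) and -0.53 for newborn over fetal aorta (9 and 6). Mki67 encodes Ki-67, the chromosome-coating protein used as the marker of dividing cells. Its signal was 1727 in the newborn ductus, 5159 in the oxygen ductus and 4200 in the fetal ductus, and 2185 in the newborn aorta against 4473 in the fetal aorta. Both newborn vessels were low and the oxygen ductus was highest, and the ratios were 2.43-fold lower for newborn over fetal ductus and 2.05-fold lower for newborn over fetal aorta.

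Of the B-type cyclins and their kinase, Cdk1 and Ccnb2 had smaller ratios. Cdk1, the mitotic kinase, had 944 in the newborn ductus, 1670 in the oxygen ductus and 1230 in the fetal ductus, and 970 in the newborn aorta against 1158 in the fetal aorta. Ccnb1, cyclin B1, had signals of 590 (newborn ductus), 957 (oxygen ductus) and 898 (fetal ductus), and of 636 (newborn aorta) and 862 (fetal aorta). Its newborn signals were 1.52-fold (ductus) and 1.35-fold (aorta) below the fetal ones. A second Ccnb1 probe set had log2 ratios of -0.81 in the ductus and -0.69 in the aorta. Ccnb2, cyclin B2, had 1737 in the newborn ductus, 3886 in the oxygen ductus and 2021 in the fetal ductus, and 1972 in the newborn aorta against 2573 in the fetal aorta. The newborn vessels were lowest for all 3 genes, yet the newborn ductus was only 1.30-fold below the fetal ductus for Cdk1 and 1.16-fold for Ccnb2. Cyclin A2 (Ccna2), which acts in S phase and at mitotic entry, stood apart: 205 in the newborn ductus, 488 in the oxygen ductus and 659 in the fetal ductus, and 453 in the newborn aorta against 645 in the fetal aorta. Its newborn ductus signal was under the floor and at least 2.72-fold below the fetal ductus, while the newborn aorta was 1.42-fold below the fetal aorta.

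Ratios varied among the kinases and the anaphase machinery. Plk1, polo-like kinase 1, had 855 in the newborn ductus, 1428 in the oxygen ductus and 1428 in the fetal ductus, and 753 in the newborn aorta against 1747 in the fetal aorta, and its ratio was larger in the aorta (2.32-fold lower in newborns) than in the ductus (1.67-fold lower). Aurka, a spindle pole kinase, had signals of 554 (newborn ductus), 1118 (oxygen ductus) and 847 (fetal ductus), and of 399 (newborn aorta) and 814 (fetal aorta). Aurkb, the kinase of the chromosomal passenger complex, had 260 in the newborn ductus, 422 in the oxygen ductus and 361 in the fetal ductus, and 145 in the newborn aorta against 327 in the fetal aorta, and its newborn aorta signal was under the floor. Both Aurora kinases were thus lowest in the newborn aorta. Cdc20, which activates the anaphase-promoting complex, had signals of 382 (newborn ductus), 1174 (oxygen ductus) and 1054 (fetal ductus), and of 482 (newborn aorta) and 950 (fetal aorta). Its newborn ductus signal was 2.76-fold below the fetal ductus, the lowest ductus ratio among genes above the floor on both arrays. Ube2c, the ubiquitin-conjugating enzyme of the same complex, had 1581 in the newborn ductus, 2881 in the oxygen ductus and 2577 in the fetal ductus, and 1589 in the newborn aorta against 2296 in the fetal aorta. Bub1b, a checkpoint protein that restrains Cdc20, had signals of 210 (newborn ductus), 454 (oxygen ductus) and 319 (fetal ductus), and of 207 (newborn aorta) and 360 (fetal aorta). For Ube2c and Bub1b the newborn vessels lay close together and below the other 3 states.

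Several chromosome and spindle genes had birth ratios of unlike size in the 2 vessels, each from 1 array per state. Ncapd2, of the condensin complex that compacts chromosomes, had 578 in the newborn ductus, 1249 in the oxygen ductus and 869 in the fetal ductus, and 289 in the newborn aorta against 1225 in the fetal aorta. The newborn aorta was the low point, 4.24-fold below the fetal aorta, against 1.5-fold for newborn over fetal ductus. Cenpn, a centromere protein, had the reverse, with signals of 290 (newborn ductus), 1290 (oxygen ductus) and 785 (fetal ductus), and of 496 (newborn aorta) and 590 (fetal aorta). It was 2.71-fold lower in the newborn than in the fetal ductus, 1.19-fold lower in the newborn than in the fetal aorta, and highest in the oxygen ductus. Kifc1, a minus-end directed kinesin, had 273 in the newborn ductus, 329 in the oxygen ductus and 499 in the fetal ductus. It had 163 in the newborn aorta, little above the floor of 149.8, against 490 in the fetal aorta (3.00-fold lower in the newborn). Top2a, the topoisomerase that untangles sister chromatids, had signals of 2152 (newborn ductus), 3609 (oxygen ductus) and 3092 (fetal ductus), and of 2050 (newborn aorta) and 2856 (fetal aorta). Its newborn signals were 1.44-fold (ductus) and 1.39-fold (aorta) below the fetal ones.

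Kif22, Kif20a and Prc1, which act on chromosome arms and the spindle midzone, were lower in both newborn vessels. Kif22, a chromosome-bound kinesin, had 1157 in the newborn ductus, 2413 in the oxygen ductus and 2470 in the fetal ductus, and 1138 in the newborn aorta against 2167 in the fetal aorta, and was 2.13-fold lower in the newborn than in the fetal ductus and 1.90-fold lower in the newborn than in the fetal aorta. Kif20a, a kinesin of the midzone, had signals of 1504 (newborn ductus), 2607 (oxygen ductus) and 2290 (fetal ductus), and of 1468 (newborn aorta) and 2000 (fetal aorta). Prc1, which bundles midzone microtubules, had 1568 in the newborn ductus, 2684 in the oxygen ductus and 2301 in the fetal ductus, and 1672 in the newborn aorta against 2100 in the fetal aorta. The newborn values of these 3 kinesin and midzone genes differed little between vessels. Racgap1, of the centralspindlin complex, had signals of 718 (newborn ductus), 1707 (oxygen ductus) and 1543 (fetal ductus), and of 831 (newborn aorta) and 1181 (fetal aorta). At this probe set the ratio was larger in the ductus (2.15-fold lower in newborns, against 1.42-fold in the aorta). A second Racgap1 probe set had log2 ratios of -0.2 in the ductus and -0.44 in the aorta, so this order depended on the probe set. Stmn1, stathmin, which destabilises microtubules and had the highest mean signal of the group, had 3245 in the newborn ductus, 5475 in the oxygen ductus and 4114 in the fetal ductus, and 2770 in the newborn aorta against 4139 in the fetal aorta. A second Stmn1 probe set went the other way in the ductus, with 453 in the newborn ductus, 154 in the oxygen ductus, 302 in the fetal ductus, 513 in the newborn aorta and 439 in the fetal aorta, so the probe sets of Stmn1 did not all go one way. Hmgb2, a chromatin protein of dividing cells, had signals of 100 (newborn ductus), 348 (oxygen ductus) and 331 (fetal ductus), and of 229 (newborn aorta) and 316 (fetal aorta). Another 3 probe sets, shared by Hmgb2 and 3 related loci, had log2 ratios of -0.36, -1.11 and -0.36 for newborn over fetal ductus and -0.38, -0.32 and -0.57 for newborn over fetal aorta.

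Replication genes had a lower median ratio in the ductus than in the aorta. Their median log2 ratio was -0.81 for newborn over fetal ductus (13 of 19 at least 1.5-fold and 8 at least 2-fold lower) and -0.63 for newborn over fetal aorta (10 and 3). All 6 subunits of the Mcm helicase were at least 1.5-fold lower in the newborn than in the fetal ductus (median -0.95), and 4 of 6 were so in the newborn against the fetal aorta (median -0.68). Mcm6 had 1235 in the newborn ductus, 2878 in the oxygen ductus and 2769 in the fetal ductus, and 1329 in the newborn aorta against 2711 in the fetal aorta, and both newborn vessels were more than 2-fold below their fetal ones. Mcm5 had signals of 209 (newborn ductus), 556 (oxygen ductus) and 487 (fetal ductus), and of 192 (newborn aorta) and 386 (fetal aorta). Mcm2 had 1688 in the newborn ductus, 3076 in the oxygen ductus and 2744 in the fetal ductus, and 1766 in the newborn aorta against 2519 in the fetal aorta. These values put Mcm5 2.32-fold and Mcm2 1.63-fold lower in the newborn than in the fetal ductus. Mcm7 had signals of 567 (newborn ductus), 992 (oxygen ductus) and 1206 (fetal ductus), and of 720 (newborn aorta) and 1115 (fetal aorta). Mcm3 had 432 in the newborn ductus, 1030 in the oxygen ductus and 755 in the fetal ductus, and 412 in the newborn aorta against 686 in the fetal aorta. Mcm4 had signals of 427 (newborn ductus), 545 (oxygen ductus) and 733 (fetal ductus), and of 467 (newborn aorta) and 562 (fetal aorta). Both newborn vessels were below the other 3 states for each of these subunits, with the smallest separation for Mcm4 in the aorta (1.20-fold lower in the newborn).

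Polymerases, the clamp and its loader were less uniform. Pcna, the sliding clamp, had 3189 in the newborn ductus, 4774 in the oxygen ductus and 4191 in the fetal ductus, and 3738 in the newborn aorta against 3519 in the fetal aorta. It was 1.31-fold lower in the newborn than in the fetal ductus, while the newborn aorta was 1.06-fold above the fetal aorta. Its second probe set gave log2 ratios of -0.54 (ductus) and 0.03 (aorta). Rfc2, of the clamp loader, had signals of 363 (newborn ductus), 927 (oxygen ductus) and 545 (fetal ductus), and of 701 (newborn aorta) and 787 (fetal aorta), so that the newborn ductus was lowest and the newborn aorta close to the fetal one. Rfc4 of the same loader had 216 in the newborn ductus, 479 in the oxygen ductus and 333 in the fetal ductus, and 249 in the newborn aorta against 308 in the fetal aorta. Pold1, the catalytic subunit of polymerase delta, had signals of 128 (newborn ductus), 353 (oxygen ductus) and 382 (fetal ductus), and of 179 (newborn aorta) and 323 (fetal aorta), and its newborn ductus signal was under the floor, at least 2.55-fold below the fetal ductus. Prim1, a primase subunit, had 1104 in the newborn ductus, 1160 in the oxygen ductus and 1138 in the fetal ductus, and 1292 in the newborn aorta against 1111 in the fetal aorta, which is nearly level over the 5 states. A second Prim1 probe set was lower in both newborn vessels (log2 ratios of -0.45 in the ductus and -0.19 in the aorta), so its course differed between probe sets.

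Flap endonuclease and ligase finish the lagging strand. Fen1 had signals of 289 (newborn ductus), 469 (oxygen ductus) and 544 (fetal ductus), and of 271 (newborn aorta) and 400 (fetal aorta), and Lig1, DNA ligase 1, had 412 in the newborn ductus, 648 in the oxygen ductus and 562 in the fetal ductus, and 544 in the newborn aorta against 971 in the fetal aorta. Fen1 was 1.88-fold lower in the newborn than in the fetal ductus, whereas Lig1 had its larger ratio in the aorta (1.79-fold lower in the newborn). A second, dim Lig1 probe set had log2 ratios of 0.30 in the ductus and 0.09 in the aorta.

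Nucleotide supply was split. Rrm2, the regulatory subunit of ribonucleotide reductase that is made in S phase, had signals of 753 (newborn ductus), 2206 (oxygen ductus) and 1579 (fetal ductus), and of 799 (newborn aorta) and 1323 (fetal aorta). Rrm1, the catalytic subunit, which is more stable over the cycle, had 2730 in the newborn ductus, 4431 in the oxygen ductus and 4074 in the fetal ductus, and 4050 in the newborn aorta against 3982 in the fetal aorta. Rrm2 was lower in both newborn vessels (2.10-fold in the ductus and 1.66-fold in the aorta), and Rrm1 in the newborn ductus alone (1.49-fold). Tk1, the S phase thymidine kinase, had signals of 722 (newborn ductus), 1299 (oxygen ductus) and 1566 (fetal ductus), and of 1027 (newborn aorta) and 1988 (fetal aorta). It was 2.17-fold lower in the newborn than in the fetal ductus and 1.94-fold lower in the newborn than in the fetal aorta. The further Tk1 probe sets had log2 ratios of -0.56 and -0.82 in the ductus and -0.64 and -0.01 in the aorta. The aorta ratio of Tk1 thus depended on the probe set. Cdca7, a factor that helps to maintain DNA methylation, had 467 in the newborn ductus, 1558 in the oxygen ductus and 1104 in the fetal ductus, and 473 in the newborn aorta against 1081 in the fetal aorta, and Dnmt1, the methyltransferase that copies methylation to the new strand, had signals of 362 (newborn ductus), 720 (oxygen ductus) and 755 (fetal ductus), and of 319 (newborn aorta) and 585 (fetal aorta). Both were low in both newborn vessels. Gmnn, geminin, which blocks a second round of replication, had 347 in the newborn ductus, 385 in the oxygen ductus and 432 in the fetal ductus, and 378 in the newborn aorta against 378 in the fetal aorta, a narrow range in which the newborn aorta equalled the fetal aorta.

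**Figure D3:**
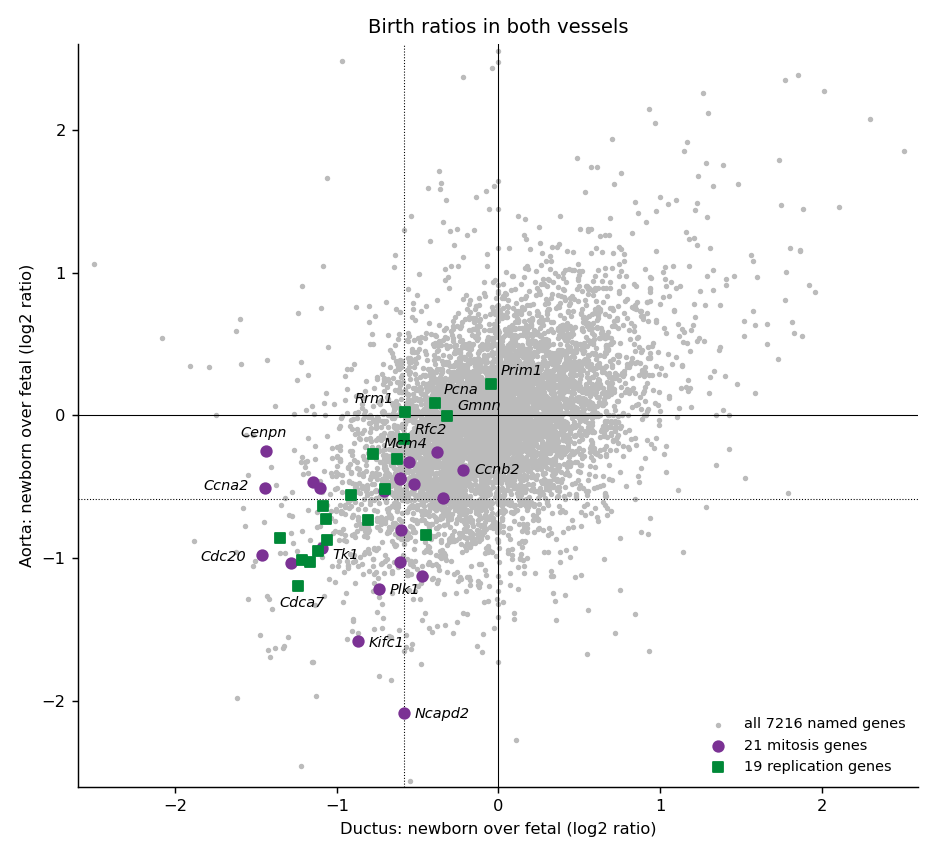
Log2 ratio of newborn over fetal aorta (y axis) against newborn over fetal ductus (x axis) for 7216 named genes (grey, 13 outside the plotted range), 21 mitosis genes (purple circles) and 19 replication genes (green squares). Dotted lines mark 1.5-fold lower, and all 40 coloured points lie left of 0 on the x axis, 37 of them also below 0 on the y axis.

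The size of the birth ratio was compared between the vessels gene by gene. Across the 19 replication genes the ratios in the ductus and in the aorta ran in parallel (Pearson r = 0.85, Spearman rho = 0.85), while across the 21 mitosis genes they did not (r = 0.02, rho = 0.16). Across all 7216 named genes r was 0.44. These correlations are across genes measured on the same arrays, and genes are not independent replicates. The ductus ratio was the lower one in 18 of 19 replication genes, with Lig1 the exception, against 3592 of the 7216 named genes. The median difference was -0.32 in log2, against 0.00 over all named genes, and 1 of the 19 differences reached 1.5-fold. Among mitosis genes the ductus ratio was lower in 13 and higher in 8 of 21 (median difference -0.16). The mitosis genes with the largest differences were Cenpn (-1.19) and Ccna2 (-0.94) with a lower ductus ratio, and Ncapd2 (1.5) and Kifc1 (0.71) with a lower aorta ratio. With 1 array per state these differences between vessels have no test.

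A fit with both vessels as the samples of a stage gave each gene a p-value for newborn against fetal arrays, called the birth effect. The group was chosen with earlier results of these data known, so its counts of calls describe it and test nothing. The additive model of vessel and stage (limma, per chip) left 1 residual degree of freedom, so the vessel-by-stage interaction was the error, fitted where at least 2 of 4 arrays were above the floor. The error of each probe set was moderated by that of all probe sets of its chip, with prior degrees of freedom of 6.6 (A), 9.83 (B) and 5.94 (C). Most of the error was thus borrowed from other probe sets. The labels do not say whether arrays came from separate animals, so the p-values do not measure a spread between animals. The birth effect was below 0 in 39 of 40 genes (median -0.78), and 8 genes fell with Benjamini-Hochberg adjusted p under 0.05 over all probe sets of the chip, against 0.727% of the 7426 named genes fitted. None rose, against 0.714% of named genes. Mki67 fell by 1.16 in log2 (SE 0.22, limma adjusted p = 0.0335), Cdc20 by 1.22 (SE 0.21, adjusted p = 0.0371), Kif22 by 1.01 (SE 0.22, adjusted p = 0.046) and Kifc1 by 1.23 (SE 0.23, adjusted p = 0.0435). Of the replication genes, Mcm5 fell by 1.11 (SE 0.20, limma adjusted p = 0.0385), Mcm6 by 1.10 (SE 0.19, adjusted p = 0.0385), Pold1 by 1.10 (SE 0.21, adjusted p = 0.0449) and Dnmt1 by 0.97 (SE 0.20, adjusted p = 0.0491). Cdca7 had an effect of -1.22 (SE 0.18) with limma adjusted p = 0.0556 and Ncapd2 one of -1.34 (SE 0.32) with 0.0556. At an unadjusted p under 0.05 there were 33 genes of 40, all lower, against 835 lower and 557 higher of the 7426 named genes. The calls lie close to the threshold: the same fit called 0 of these genes with a floor at the 25th percentile (27 lower at an unadjusted p under 0.05) or with no filter on dim probe sets (11 lower), 3 other genes of the group after quantile normalization, and 14 with an intensity trend.

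The oxygen ductus addresses whether raised maternal oxygen in the fetus goes with the same change. At the brightest probe sets it did not show the lower signals of the newborn: the median log2 ratio of oxygen over fetal ductus was 0.22 for mitosis genes and 0.12 for replication genes, against 0.04 over all named genes. In 30 of 40 genes the oxygen ductus was above the fetal ductus, against 3926 of the 7216 named genes. Only Kifc1 was at least 1.5-fold lower in the oxygen ductus (1.52-fold), against 5.47% of all named genes. That count was 0 after quantile normalization, scaling on bright probe sets, without a floor or with the floor at the 75th percentile, 2 with the floor at the 25th percentile, and 3 with the mean of all probe sets of a gene. At least 1.5-fold higher were Ccnb2 (1.92-fold), Rfc2 (1.70-fold) and Cenpn (1.64-fold), against 4.37% of all named genes. Next below that fold came Rfc4 (0.52 in log2) and Ncapd2 (0.52), and at the other end Ccna2 (-0.43), Mcm4 (-0.43) and Mcm7 (-0.28). The oxygen ductus had the highest signal of the 5 states in 27 of 40 genes (17 of 21 mitosis genes and 10 of 19 replication genes), against 29.9% of all named genes. The further probe sets of these genes leaned the other way. Of the 19 that were above the floor on 1 or both arrays, from 13 genes, 12 were lower and 7 higher in the oxygen than in the fetal ductus (median log2 ratio -0.29), 5 of them at least 1.5-fold lower and 0 higher. For Rrm2 the brightest probe set had 0.48 and the further ones -1.49 and -1.05, for Top2a 0.22 against -0.67 and -1.44 (a bound), and for Cdc20 0.16 against -0.78. The direction for oxygen therefore depends on the probe set in these genes.

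Among the 6 pairs of states compared, newborn and oxygen ductus had the medians farthest from 0. The median log2 ratio of newborn over oxygen ductus was -1.01 for mitosis genes and -0.87 for replication genes, against -0.09 over all named genes. At least 1.5-fold lower in the newborn ductus were 35 of 40 genes (14.8% of all named genes) and at least 2-fold lower 19 (3.35%). Cenpn was 4.45-fold, Cdca7 3.34-fold, Cdc20 3.07-fold and Mki67 2.99-fold lower. Of the 19 further probe sets, 12 were lower and 7 higher in the newborn ductus (median -0.21). At least 1.5-fold lower were 5, and 3 were at least 1.5-fold higher. Those 3 were of Top2a (1.23 in log2, a bound), Stmn1 (0.91, a bound) and Rrm2 (0.63). Away from the brightest probe sets this separation too was smaller, and in some genes it was reversed. This comparison shares the newborn ductus arrays with the birth comparison and the oxygen ductus arrays with the comparison above.

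**Figure D4:**
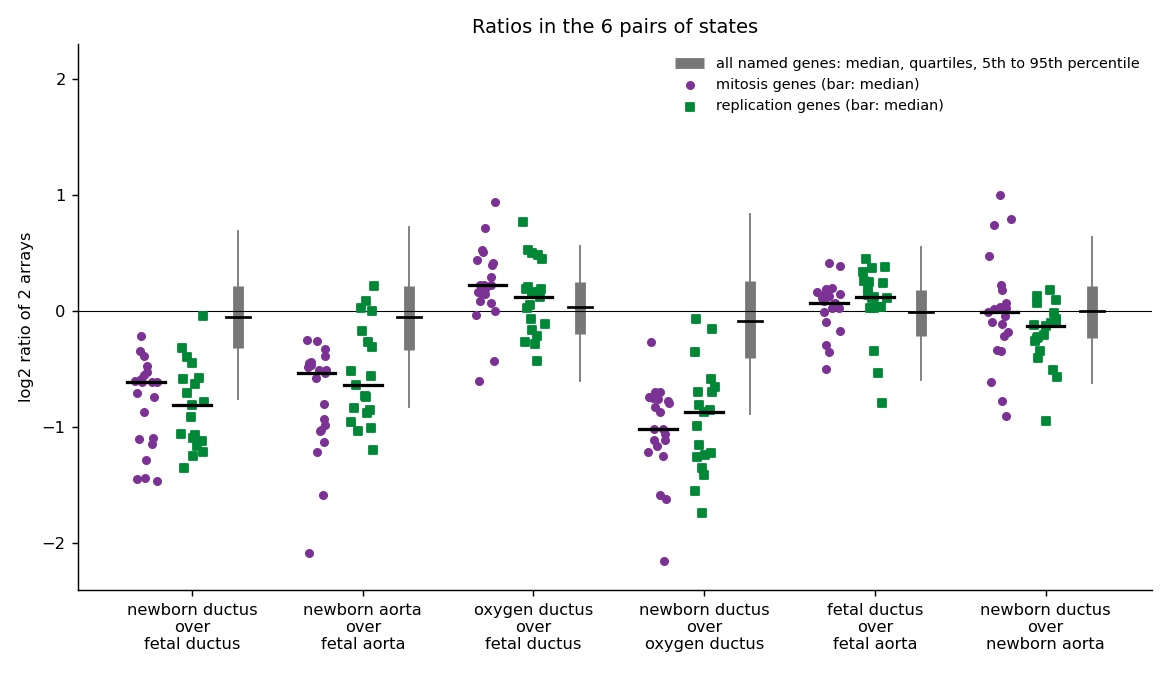
Log2 ratios (y axis) in the 6 pairs of states (x axis) for the 21 mitosis genes (purple circles) and 19 replication genes (green squares), with black bars at their medians, and for all named genes in grey (median, quartiles, and 5th to 95th percentile). The mitosis medians are -0.61 and -0.53 in the 2 birth pairs, 0.22 for oxygen over fetal ductus and -1.01 for newborn over oxygen ductus.

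Between the vessels of 1 stage the group differed little. For fetal ductus over fetal aorta the medians were 0.07 (mitosis) and 0.12 (replication), against -0.01 over all named genes. Lig1 alone was at least 1.5-fold lower in the fetal ductus (1.73-fold), against 5.16% of all named genes, and none was 1.5-fold higher, against 4.32%. The highest ratios were those of Fen1 (0.45), Cenpn (0.41), Racgap1 (0.39) and Mcm4 (0.38), and below Lig1 the lowest were Rfc2 (-0.53), Ncapd2 (-0.50) and Ccnb2 (-0.35). For newborn ductus over newborn aorta the medians were -0.01 (mitosis) and -0.13 (replication), against 0.00. At least 1.5-fold lower in the newborn ductus were Rfc2 (1.93-fold), Ccna2 (at least 1.87-fold), Cenpn (1.71-fold) and Hmgb2 (at least 1.53-fold), against 5.97% of all named genes. At least 1.5-fold higher were Ncapd2 (2.00-fold), Aurkb (at least 1.74-fold) and Kifc1 (1.67-fold), against 6.22%, with Aurka next (0.47 in log2). Over both stages limma called none of the 40 genes different between ductus and aorta, against 0.0135% of named genes, and 3 had an unadjusted p under 0.05, Rfc2, Lig1 and Tk1, all lower in the ductus, against 264 lower and 302 higher of the 7426 named genes. The vessel effect was -0.6 in log2 for Lig1 and -0.43 for Tk1. At further probe sets it was -0.05 for Lig1, and 0.11 and -0.12 for Tk1.

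Other genes of the same processes, from lists beyond the 45, had smaller median ratios. The 45 genes and these lists were chosen with earlier results of these data known. The difference in size therefore cannot be read as a trait of the genes. Of 67 further mitosis genes listed, 34 were compared, and their median log2 ratio was -0.50 for newborn over fetal ductus (14 at least 1.5-fold lower and 1 higher) and -0.42 for newborn over fetal aorta (10 lower and 1 higher). Of all named genes, 9.94% (ductus) and 11.4% (aorta) were at least 1.5-fold lower, and 7.71% and 7.75% higher. The lowest in the ductus were Espl1, the separase that cuts cohesin (2.59-fold lower in the newborn), the passenger protein Cdca8 (2.43-fold), the condensin subunit Ncapd3 (2.05-fold) and Trip13 (1.92-fold). In the aorta they were the kinesin Kif2c (at least 3.35-fold), Incenp (3.08-fold), Trip13 (2.37-fold) and Dlgap5 (2.04-fold). Cdc25b, a phosphatase that activates Cdk1, went the other way: it had 3039 in the newborn ductus, 903 in the oxygen ductus and 1251 in the fetal ductus, and 4002 in the newborn aorta against 2343 in the fetal aorta. Both newborn vessels were the highest of the 5 states for Cdc25b, 2.43-fold above the fetal ductus and 1.71-fold above the fetal aorta.

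Of 60 further replication genes, 31 were compared, with medians of -0.47 for newborn over fetal ductus (12 at least 1.5-fold lower and 0 higher) and -0.42 for newborn over fetal aorta (13 lower and 1 higher). The shares of all named genes are those given for the further mitosis genes. The lowest in the ductus were Tmpo (1.96-fold), the clamp loader subunit Rfc3 (1.95-fold), the histone chaperone Asf1b (1.90-fold) and Rpa2 of the single-strand binding complex (1.90-fold). In the aorta Uhrf1, which guides Dnmt1 to new DNA, was at least 2.44-fold lower, Asf1b 2.08-fold, the primase subunit Prim2 2.06-fold and Atad2 1.97-fold. Pold4, the smallest subunit of polymerase delta, was 1.60-fold higher in the newborn aorta.

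The upstream regulators of the cycle had medians near those of all named genes. Of 29 listed, 13 were compared, with medians of -0.10 (newborn over fetal ductus) and -0.01 (newborn over fetal aorta), against -0.05 over all named genes in each. At least 1.5-fold lower were 2 of 13 genes in the ductus and 1 of 13 in the aorta. These counts are too small to set apart from the 9.94% and 11.4% of all named genes. The genes were Ccne1, cyclin E1 (1.74-fold lower in the newborn of each vessel), and Tfdp1, the partner of E2F proteins (1.55-fold lower in the newborn ductus). Foxm1, an activator of mitosis genes, had 452 in the newborn ductus, 390 in the oxygen ductus, 464 in the fetal ductus, 398 in the newborn aorta and 524 in the fetal aorta. Mybl2, which acts with it, had 625 in the newborn ductus, 538 in the oxygen ductus, 768 in the fetal ductus, 647 in the newborn aorta and 653 in the fetal aorta. Neither showed the separation of newborn from fetal arrays seen for the mitosis genes.

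Genes with more than 1 probe set gave a second reading of the birth ratios. Of the 26 further probe sets of the group, 18 were above the floor on at least 1 of both ductus arrays, and 16 of these were lower in the newborn ductus (median -0.56). In the aorta 15 of 19 were lower in the newborn (median -0.50). For Kif22 the 2 further probe sets had log2 ratios of -0.83 and -0.77 in the ductus and -0.75 and -1.66 in the aorta (the last with the newborn at the floor), and for Rrm2 they had -0.85 and -1.13 in the ductus and -0.98 and -0.86 in the aorta. Mcm6 and Cdc20, both called by limma, had smaller ratios at their further probe sets. For Mcm6 these were -0.55 and -0.65 in the ductus and -0.5 and -0.4 in the aorta, against -1.16 and -1.03 at the brightest. For Cdc20 they were -1.15 in the ductus and -0.71 in the aorta, against -1.46 and -0.98. Those of Racgap1 and Tk1 are given above.

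Markers of other cell types also differed between newborn and fetal vessels. The summed signal of the 22 mitosis genes was 20702 in the newborn ductus, 41404 in the oxygen ductus, 33992 in the fetal ductus, 20969 in the newborn aorta and 33354 in the fetal aorta. The 21 replication genes summed to 15952 (newborn ductus), 28831 (oxygen ductus) and 26284 (fetal ductus), and to 19155 (newborn aorta) and 25200 (fetal aorta). Heart muscle markers (12 with a probe set, Ryr2 under the floor throughout) summed to 16027 (newborn ductus), 32460 (oxygen ductus) and 34762 (fetal ductus), and to 20628 (newborn aorta) and 16145 (fetal aorta). At least 1.5-fold lower were 9 of the 11 heart markers compared in the newborn ductus (9.94% of all named genes), and 1 of 11 in the newborn aorta (11.4%). Fat markers (10, Plin1 under the floor throughout) summed to 4943 (newborn ductus), 3569 (oxygen ductus) and 4291 (fetal ductus), and to 13611 (newborn aorta) and 4645 (fetal aorta), with the newborn aorta far above the others. Nerve and chromaffin markers (10, Chgb under the floor throughout) summed to 4970 (newborn ductus), 3932 (oxygen ductus) and 4301 (fetal ductus), and to 4134 (newborn aorta) and 6355 (fetal aorta). Leukocyte markers (15) summed to 7416 (newborn ductus), 6016 (oxygen ductus) and 6783 (fetal ductus), and to 7883 (newborn aorta) and 10588 (fetal aorta). Both lists were highest in the fetal aorta, with median log2 ratios of -1.51 (nerve and chromaffin) and -0.42 (leukocyte) for newborn over fetal aorta. For newborn over fetal ductus these medians were -0.48, with 5 of 6 nerve and chromaffin markers lower although their sum was higher, and 0.04. Endothelial markers (10, Kdr under the floor throughout) summed to 11047 (newborn ductus), 8239 (oxygen ductus) and 7689 (fetal ductus), and to 11769 (newborn aorta) and 8689 (fetal aorta). Smooth muscle markers (8) summed to 119025 (newborn ductus), 86470 (oxygen ductus) and 83982 (fetal ductus), and to 74547 (newborn aorta) and 59056 (fetal aorta). Both lists were higher in newborn than in fetal vessels. Erythroid markers (14, Klf1 and Epb42 under the floor throughout) summed to between 122314 and 127641 in all 5 states, a total made mostly of the globins Hba-a1 and Hbb. Single erythroid genes differed widely between states. The embryonic globin Hbe1 had 261 in the newborn ductus, 6456 in the oxygen ductus and 6741 in the fetal ductus, and 328 in the newborn aorta against 17355 in the fetal aorta. Alas2, of heme synthesis, had log2 ratios of 1.82 for newborn over fetal ductus and 0.65 for newborn over fetal aorta. Cartilage markers (4, Matn1 under the floor throughout) summed to 771 (newborn ductus), 1507 (oxygen ductus) and 1806 (fetal ductus), and to 590 (newborn aorta) and 660 (fetal aorta). Of 3 compared, 2 were at least 2-fold lower in the newborn than in the fetal ductus, Col9a1 and Col2a1, against 1.86% of all named genes. The part of these lists in the ratios of the replication and mitosis genes was not tested.

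**Figure D5:**
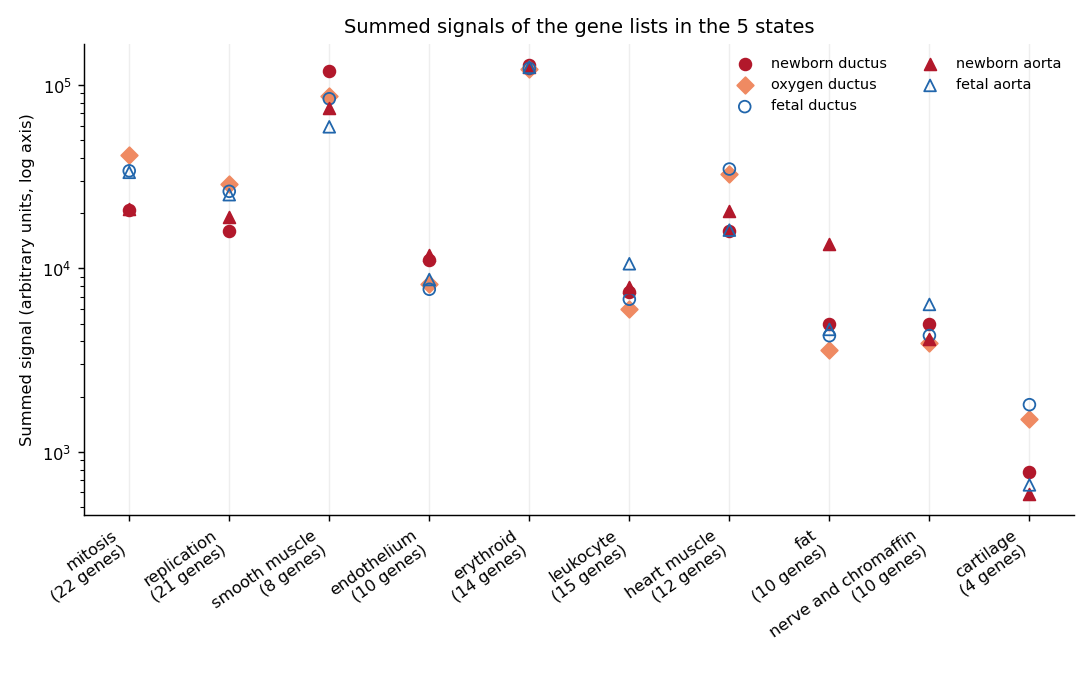
Summed signal (y axis, arbitrary units on a log axis) of the mitosis and replication genes and of 8 lists of cell type markers in the 5 states, with symbols as in the plot of signals by gene. The mitosis sums of both newborn vessels (20702 and 20969) lie below those of the 3 day 19 states (33354 to 41404), whereas heart markers are lower in the newborn ductus and higher in the newborn aorta.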

How the data were processed

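The deposited files hold 1 signal intensity per probe set and array, on a linear scale with the same trimmed mean of about 500 on all 15 arrays. MAS 5 is named for 4 of the 5 chip A arrays, per the submitters' processing notes, and the processing of the others is not given in the sources used here. No value column was left without a sample. The 45 genes and the further lists were chosen with earlier results of these data known. From the deposited intensities, log2 ratios were computed after flooring, at the brightest probe set of each gene. Signals were printed for the 12 mitosis and 10 replication genes of highest mean, for the 4 genes each way with the largest ratio in each pair of states, and for genes whose probe sets went opposite ways by 1.5-fold or more; Mcm5 and Dnmt1 were added as limma calls, and Aurka, Ccnb1, Bub1b, Rfc4, Mcm3, Foxm1 and Mybl2 to complete their groups, after their values were seen. The fit used limma 3.58.1 in R 4.3.3 on 4 arrays per chip, with 4585 (A), 4621 (B) and 4604 (C) probe sets. It was also run on simulated data with normal noise of equal size and no vessel-by-stage interaction. Those data held only probe sets above the floor on all 4 arrays, so that run does not give error rates for the real data. Alternatives changed the floor, the scaling, the filter, the probe set rule, the chips used and the adjustment. Depth cannot be stated for arrays, and 1 array per state and chip limits the precision.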

Additional observations from a re-analysis of the deposited data

Results flagged for a closer look

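Pcna, Prim1 and Rrm1 had birth ratios of opposite sign in the vessels, lower in the newborn than in the fetal ductus and higher in the newborn than in the fetal aorta. The aorta log2 ratios were 0.09 (Pcna), 0.22 (Prim1) and 0.02 (Rrm1), and the ductus ratio of Prim1 was -0.04. All of these are within the estimated SD of 0.303, so the signs are uncertain. The log2 ratio of the ductus minus that of the aorta was -0.48 for Pcna, -0.26 for Prim1 and -0.60 for Rrm1. Each rests on 1 array per state, and the difference between the vessels was not tested. The second probe set of Pcna had the same signs, and the second probe set of Prim1 was lower in newborns of both vessels. Gmnn, with log2 ratios of -0.32 in the ductus and -0.00 in the aorta, came next to these 3 genes.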

How the results depend on the processing

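Over the 8 alternatives run for each median of log2 ratios, newborn over fetal ductus lay between -0.61 and -0.57 (mitosis) and between -1.06 and -0.66 (replication), newborn over fetal aorta between -0.58 and -0.49 and between -0.64 and -0.39, and newborn over oxygen ductus between -1.01 and -0.75 and between -0.99 and -0.70. For oxygen over fetal ductus the ranges were 0.14 to 0.25 and 0.03 to 0.14; after quantile normalization the replication median (0.04) was below that of all named genes (0.06). Between the vessels the medians stayed within 0.03 to 0.24 (fetal ductus over fetal aorta) and -0.21 to 0.02 (newborn ductus over newborn aorta). Counts of genes at least 1.5-fold apart moved more. With the floor at the 75th percentile (28 genes left), 15 were lower in the newborn than in the fetal ductus, 10 in the newborn than in the fetal aorta, 0 for fetal ductus over fetal aorta, and 0 for newborn ductus over newborn aorta. On chip A alone (20 genes left) these counts were 14, 10, 0 and 1, with 17 lower in the newborn than in the oxygen ductus and 0 higher in the oxygen than in the fetal ductus. Quantile normalization gave 5 genes higher in the oxygen than in the fetal ductus. With the mean of all probe sets of a gene, 0 were lower for fetal ductus over fetal aorta.

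The 8 limma calls for birth were the least stable result. They became 0 with a floor at the 25th percentile (adjusted p 0.231 to 0.291 for the 8 genes) and 0 with no filter on dim probe sets (0.471 to 0.791). After quantile normalization limma called 3 genes, none of the 8 (adjusted p 0.0607 to 0.119 for those), and with an intensity trend 14, all of the 8 among them. With the floor at the 75th percentile 6 were called and with adjustment over the 3 chips together 6, each with 4 of the 8. The effect of Kifc1 was -0.02 and that of Dnmt1 -0.44 with the floor at the 75th percentile. The cause of these shifts was not tested. No paired analysis was possible because each state had 1 array per chip type. Dim genes limit the ratios: 36 of 43 genes were above the floor in all 5 states.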
